A study of Auxenochlorella pyrenoidosa with 12 samples.

Results

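The comparison described here sets cultures of the green alga Auxenochlorella pyrenoidosa without added nitrate (N0, 0 g/L NaNO3) against cultures with limited nitrate (N0.5, 0.5 g/L NaNO3). Its members are the 6 libraries that the labels name N0 and N0.5, 3 each, out of 12 in the series. The other 6 are 3 libraries of N1 (1 g/L) and 3 of N1.5 (1.5 g/L, the control level). They share the filter, the scaling and the fit with the 6 libraries compared. They also serve to place the levels of N0 and N0.5, and they are compared with each other. All cultures carry the same strain label, SHOU-1002, and per the design text the 3 libraries in each group are biological repeats. Nothing in the sources used here gives the culture medium, the light, the cell density or the time of harvest. The question addressed is how full absence of nitrate differs from limitation.

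Green algae take up nitrate, reduce it to ammonium through nitrate reductase and nitrite reductase, and fix the ammonium into glutamine and glutamate. When nitrogen runs short, algae of this kind are known to slow growth, to lose chlorophyll and ribosomes, and to store carbon as starch and as triacylglycerol. The alga studied here is grown for such storage compounds, and the series is named for lipid accumulation under nitrogen deprivation. These are statements of background: the deposited tables pair no feature with a gene name, a function or a sequence, so no pathway can be followed in them and no sequence is printed.

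The unit of measurement is the feature, a named piece of an assembled contig. A name such as TRINITY_DN6697_c0_g1_i1_4 has the form given by the Trinity assembler, in which the part up to g1 names an assembled gene, i1 names one of its contigs, and here a last number separates features on the same contig. The 16413 features belong to 11533 Trinity genes and 13791 contigs, so a count of features is not a count of genes. Levels are given in CPM, counts scaled to a common library size, after TMM scaling, a correction for differences in library composition. FPKM values, which are also scaled to feature length, are given where features are compared with each other. All are relative to the RNA of a library, so a change in total RNA per cell cannot be seen.

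The 6 libraries held between 22376637 and 24383226 estimated counts. A count of 0 allows up to 3 counts, or between 0.134 and 0.136 CPM in these libraries, and such limits and intervals cover counting error only. Pearson correlations of log2 CPM across the tested features, which are not independent replicates, were 0.983 for each pair of N0 libraries, 0.982 to 0.985 between N0.5 libraries, and 0.865 to 0.881 between a library of N0 and one of N0.5. The biological coefficient of variation estimated within a group was 0.105 in N0 and 0.0938 in N0.5. The N0.5 libraries stood apart from the other 9 in feature length per count, and in the number of features at 1 CPM given with the spread of counts below. The mean length of the feature that a count fell on was 2298 ± 14.4 bases (SD, n = 3) in N0.5, against 2084 ± 31.0 in N0, 2058 ± 29.0 in N1 and 2045 ± 12.5 in N1.5. Lengths are apparent ones, from the ratio of deposited count to FPKM.

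Most measured features differed between the 2 groups. Of 15429 features tested, 5276 were higher in N0 (34.2%) and 5110 lower (33.1%), together 67.3%, at an adjusted p under 0.05 in the quasi-likelihood test of edgeR (p-values adjusted by the Benjamini-Hochberg method). The sizes were less balanced than the numbers. The median log2 fold change was 0.74 among features that rose and -1.03 among those that fell, and over all tested features it was -0.02. Higher by 2-fold or more in N0 were 1919 features (12.4%), and lower by as much were 2624 (17.0%). At 4-fold or more the numbers were 809 (5.24%) higher and 1147 (7.43%) lower, and at 8-fold or more 479 (3.10%) and 465 (3.01%). At 32-fold or more the order had turned, with 205 higher (1.33%) and 79 lower (0.512%). Falls were thus more frequent at 2-fold and 4-fold, and rises at 32-fold.

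The excess of falls at 2-fold and 4-fold and of rises at 32-fold was found in all 20 alternative fits, while the majority among all calls was higher in 14 of them and lower in 6. With library totals in place of TMM, 4669 features were higher and 5648 lower, and the median of all features moved from -0.02 to -0.11. Without N0.5 replicates 1 and 2 a single N0.5 library was left, and the median of all features was 0.05. In those 2 replicates, features 32-fold or more higher in N0 had a higher low level than in replicate 3, as described below. The 79 falls of 32-fold or more became 124, 143 and 130 without N0 replicate 1, 2 and 3, where between 15795 and 15804 features were tested.

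**Figure D1:**
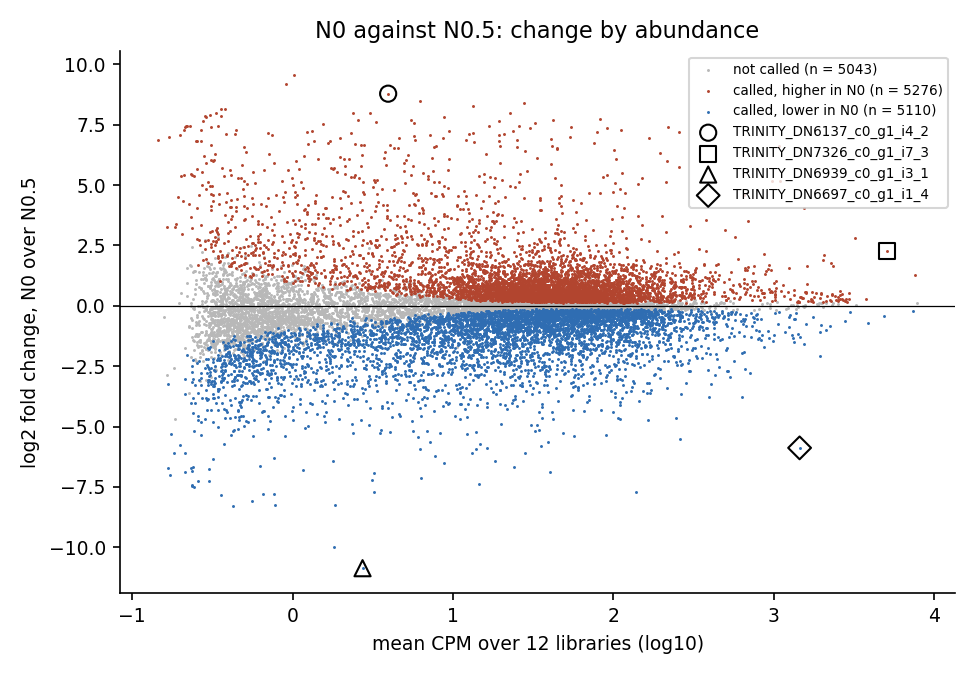
Log2 fold change of N0 over N0.5 (y axis) against mean CPM over 12 libraries (x axis, log10) for the 15429 tested features, coloured by the edgeR call, with the 4 named features outlined. Rises of 32-fold or more (205) outnumber falls of that size (79), while between 2-fold and 8-fold falls are more frequent.

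The groups overlapped in 4368 of the 15429 tested features (28.3%). In 5535 features (35.9%) all 3 N0 libraries lay above all 3 N0.5 libraries, and in 5526 (35.8%) all 3 lay below, so the groups did not overlap in 71.7%. Of these, 5174 and 4966 were also called by the edgeR test. Among the 4368 features with overlapping groups, 246 were called.

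TRINITY_DN7326_c0_g1_i7_3 showed the largest gain in CPM among features that rose 2-fold or more. It stood at 13398, 11560 and 13547 CPM in N0 replicates 1, 2 and 3, and at 2897, 2670 and 2438 CPM in the N0.5 replicates. Every N0 library lay above every N0.5 library, and the feature went from rank 15 by CPM in N0.5 to rank 2 in N0. The log2 fold change of 2.27 had a standard error of 0.13 (edgeR adjusted p 3.00e-09). In length-scaled units it measured 5065 ± 262 FPKM in N0 and 1116 ± 84.1 FPKM in N0.5 (SD, n = 3), over an apparent length of 2346 bases. It was also high elsewhere, at 1454 ± 325 CPM in N1.5 and 3997 ± 219 CPM in N1. N0 therefore held the highest of 4 levels, but N1 lay above N0.5, so the levels did not follow the NaNO3 concentration in order. The Trinity gene of this feature held another feature, which is not described here.

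TRINITY_DN6137_c0_g1_i4_2 had the largest rise in fold among features that met the conditions for naming. Its level was 17.4, 15.6 and 13.8 CPM in the 3 N0 libraries and 0.045, 0 and 0.045 CPM in the 3 N0.5 libraries. These correspond to 385, 347 and 307 counts in N0 and 1, 0 and 1 counts in N0.5. The feature was thus nearly absent from every N0.5 library. The pooled ratio was 522, with a 95% exact interval of 144 to 4316 for counting error, and the fit gave a log2 fold change of 8.79, standard error 0.51 (edgeR adjusted p 2.44e-09). N1.5 and N1 held 0.37 ± 0.10 and 0.79 ± 0.46 CPM. Against N1.5 the log2 fold change was 5.37 in N0 (edgeR adjusted p 1.81e-08) and -3.42 in N0.5 (edgeR adjusted p 0.00132), 2 comparisons that share the N1.5 libraries. N0.5 was therefore the lowest of the 4 levels and N0 the highest. The choice by fold rise favours a low N0.5 and a high N0, so the p-values against N1.5 are only a description.

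TRINITY_DN6697_c0_g1_i1_4 lost the most CPM. It stood at 44.2, 41.1 and 47.3 CPM in N0 and at 2722, 2628 and 2487 CPM in N0.5, replicates 1 to 3, and the groups were far apart. It was among the most abundant features of N0.5, at rank 19, and stood at rank 4857 in N0. The log2 fold change of -5.88 had a standard error of 0.080 (edgeR adjusted p 1.87e-14). Per length it measured 15.6 ± 0.70 FPKM in N0 against 976 ± 33.3 FPKM in N0.5 (SD, n = 3), over 2625 bases. The control level was 1596 ± 65.6 CPM in N1.5, with 1434 ± 58.0 CPM in N1. In this feature N0.5 thus lay above the control and N0 far below it. Relative to N1.5, the log2 difference was 0.71 for N0.5 (edgeR adjusted p 4.65e-07) and -5.17 for N0 (edgeR adjusted p 6.73e-14), 2 comparisons with shared N1.5 libraries. The feature was chosen for its difference between N0 and N0.5, which favours a high N0.5 and a low N0. The p-values against N1.5 are therefore only a description.

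TRINITY_DN6939_c0_g1_i3_1 had the largest fall in fold. It had 253, 186 and 235 counts in the N0.5 libraries, or 11.5, 8.33 and 10.5 CPM, and a rounded count of 0 in each N0 library. Taking 3 counts over the whole N0 group as the limit that these zeros allow, it was at least 223-fold lower in N0 (edgeR adjusted p 1.96e-07). By a 95% exact interval for counting error, the limit was 181-fold. It was low in N1.5 and N1 as well, at 0.80 ± 0.19 and 0.11 ± 0.13 CPM (SD, n = 3). Of the 4 levels only N0.5 held more than 1 CPM. The Trinity gene of this feature held another feature, not described here, so the fall is that of a feature and not of the gene.

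**Figure D2:**
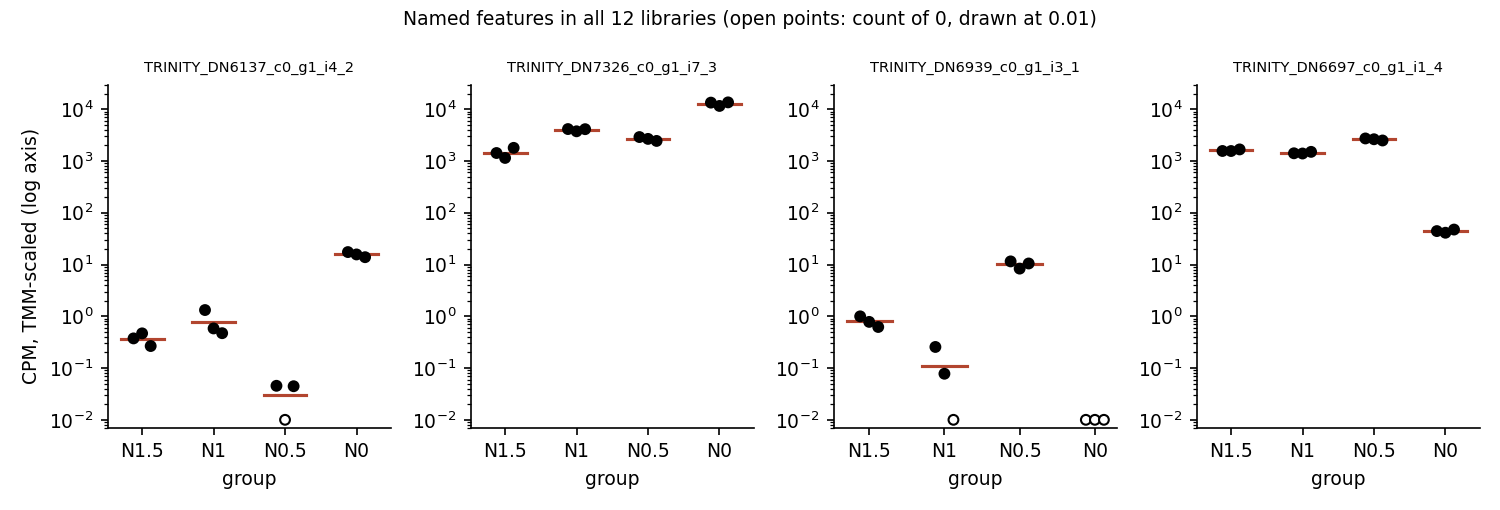
CPM after TMM scaling (log axis) of the 4 named features in each of the 12 libraries, by group; red lines are group means and open points are counts of 0. The first 2 panels are highest in N0 and the last 2 are lowest in N0, with N0.5 the highest of the 4 groups in both of the latter.

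The gain of counts in N0 was concentrated in fewer features than the loss. The 10 largest gains made up 18.8% of all CPM gained by features that rose, and 167 features made up 50% of it. The 10 largest losses made up 7.90% of the CPM lost, and 261 features made up 50%. Among the 12 largest gains of 2-fold or more, log2 fold changes ran from 1.26 to 6.63, and among the 12 largest losses from -1.06 to -5.88. All of these features were chosen for their difference between the groups, so their size is a description.

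Several of the largest gains shared a course over the other NaNO3 levels. The second largest gain went from 1374 ± 142 CPM in N0.5 to 9752 ± 959 CPM in N0, with 556 ± 171 CPM in N1.5 and 1779 ± 120 CPM in N1. The fourth went from 328 ± 25.9 to 5500 ± 262 CPM, with 147 ± 71.3 in N1.5 and 575 ± 30.7 in N1. The fifth followed another course, from 54.3, 61.1 and 16.6 CPM in N0.5 to 4348 ± 443 CPM in N0, with 183 ± 95.5 in N1.5 and 50.2 ± 18.5 in N1. Of the 12, 8 were also higher in N1 than in N1.5 and 1 was lower (edgeR adjusted p under 0.05), in libraries of neither group. Of all tested features, 3.97% were higher and 3.60% lower. The 12 were abundant, at 2203 to 13382 CPM in N0, while these shares cover features of every abundance. Features of ranks 7 and 8 had nearly the same length, 3724 and 3707 bases, and the same log2 fold change of 5.18, and the ratio of their CPM stayed between 1.08 and 1.46 over 12 libraries. The names put them in different Trinity genes, but reads shared between near-identical copies could have been split, so they may not be separate observations. Features of ranks 9 and 11 were also alike, at 1062 and 1090 bases and log2 fold changes of 1.77 and 1.66. Whether they are copies was not tested. Ranks 7, 8, 9 and 11 were all among the 8 features higher in N1 than in N1.5.

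For most of the largest losses the mean control level lay between the groups, in some of them close to N0. The choice of these features on N0 and N0.5 also favours a control level between the groups. In 9 of the 12, the mean CPM of N1.5 lay between N0 and N0.5, and in 2 below both and in 1 above both. The second largest loss went from 3258 ± 37.6 CPM in N0.5 to 678 to 821 in N0, with 1892 ± 150 in N1.5. The fourth went from 1586 ± 26.6 to 116 ± 15.4 CPM, with 349 ± 35.5 in N1.5. In other cases N1.5 lay only slightly above N0. The fifth went from 2489 ± 89.6 to 1026 ± 45.7 CPM, with 1112 ± 113 in N1.5. The eighth went from 1797 ± 36.1 to 661 ± 89.4 CPM, with 692 ± 53.3 in N1.5. The ninth went from 1457 ± 36.6 to 383 ± 31.5 CPM, with 417 ± 25.2 in N1.5. Of the 12 losses, 1 was called higher in N1 than in N1.5 and 1 lower, beside the same 3.97% and 3.60% of all tested features.

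Counts in N0 were also less evenly spread over features. In N0, 6.93% ± 0.37 (SD, n = 3) of a library's counts fell on its 10 most abundant features, against 4.48% ± 0.07 in N0.5, and the 100 most abundant took 25.9% ± 1.01 and 21.7% ± 0.36. The effective number of features, the exponential of the Shannon entropy of the shares of counts, was 3375 ± 191 in N0 and 3877 ± 69.4 in N0.5. At 1 CPM or more, without TMM scaling, there were 12781 ± 170 features in N0 and 13228 ± 53.5 in N0.5. N1 held 12650 ± 109 and N1.5 12673 ± 71.1 such features, so that N0.5 was the highest of the 4 groups in this number and N0 lay above N1 and N1.5 in the mean. In each of these measures the 3 N0 values lay on the same side of the 3 N0.5 values, and the exact two-sided permutation p was 0.1, the smallest that 3 libraries against 3 allow. The 100 features with the highest mean CPM in N0 and the 100 of N0.5 shared 72 members. Of the 10 highest, 4 were shared.

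The sets of features that differed 2-fold or more were chosen on these libraries, which fixes the direction of the difference between N0 and N0.5 and also favours values between these for other groups. The 1919 rises held 6.41% ± 0.06 (SD, n = 3) of the N0.5 counts and 22.3% ± 0.74 of the N0 counts, and 9.69% ± 0.35 in N1.5 and 11.3% ± 0.41 in N1. The 2624 falls held 5.44% ± 0.07 in N0 and 19.3% ± 0.06 in N0.5, and 12% ± 0.30 in N1.5 and 11.5% ± 0.15 in N1. The shares of N1.5 and N1 are given as a description, and nothing is read from their place between the groups.

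**Figure D3:**
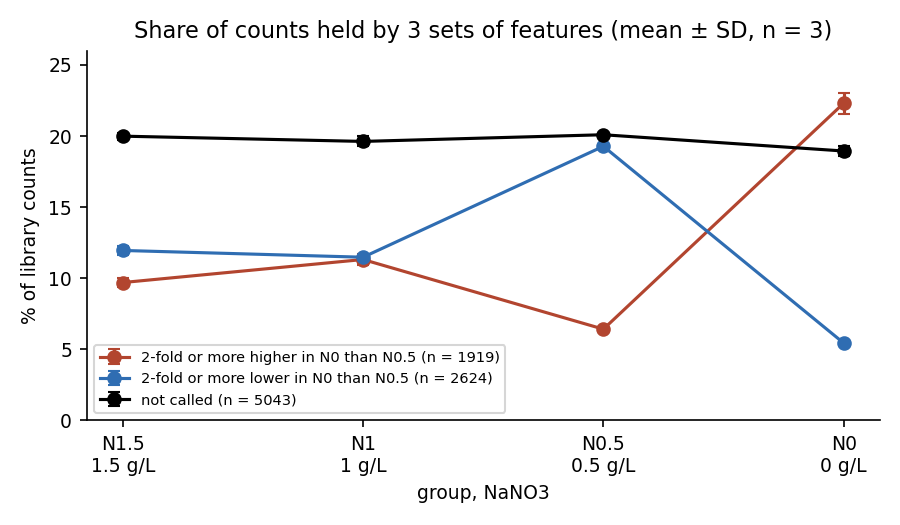
Share of library counts (y axis, mean ± SD, n = 3) held in each group by the 1919 features higher in N0 than in N0.5 by 2-fold or more, the 2624 lower by 2-fold or more, and the 5043 not called. The first 2 sets cross between N0.5 and N0, with N1.5 and N1 between these extremes, and the third stays between 18.9% and 20.1%.

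On TMM-scaled levels, the median place of the control between N0.5 and N0 differed between rises and falls. On a log2 CPM scale with N0.5 at 0 and N0 at 1, the median feature of the 1919 rises stood at 0.32 ± 0.025 in N1.5 and at 0.38 ± 0.030 in N1 (SD over 3 libraries). The median of the 2624 falls stood at 0.45 ± 0.004 in N1.5 and at 0.50 ± 0.028 in N1. For rises of 4-fold or more the N1.5 value was 0.15 ± 0.049, and for falls of that size 0.43 ± 0.009. In these sets, chosen on N0 and N0.5, the N1.5 median was nearer to N0.5 for the strong rises than for the strong falls, which is a description only. No test was made of these positions, since N0.5 and N0 set the scale on which they are read. With library totals in place of TMM the N1.5 position was 0.36 for rises and 0.39 for falls of 2-fold or more, a smaller difference. Changes of 4-fold or more were not placed on that scale.

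Single features scattered around these medians. Of the 1919 rises, 658 (34.3%) had an N1.5 level between the groups and nearer to N0.5, 459 (23.9%) one nearer to N0, 525 (27.4%) one below N0.5 and 277 (14.4%) one above N0. Of the 2624 falls, 1039 (39.6%) had an N1.5 level nearer to N0.5, 888 (33.8%) nearer to N0, 335 (12.8%) above N0.5 and 362 (13.8%) below N0. The 50 largest fold rises eligible for naming had median levels of 74.96 CPM in N0, 0.39 in N0.5, 0.57 in N1.5 and 0.50 in N1. The 50 largest fold falls had medians of 0.85 CPM in N0, 43.8 in N0.5, 7.78 in N1.5 and 6.81 in N1. In the median, the 50 rises were below 1 CPM in the other 3 groups, while the 50 falls stood at a higher level in N0.5 than in N1.5 or N1.

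Few features were restricted to either group. At a minimum of 30 counts in each of 3 libraries and a maximum of 3 in each of the other 3, 37 features were present in N0 and not in N0.5, and 16 in N0.5 and not in N0. Their median levels where present were 3.19 and 2.41 CPM. Of the 37, 14 were also at 3 counts or fewer in every N1.5 library, and of the 16, 4 were. Features 32-fold or more higher in N0 with at least 10 CPM there, 110 in number, had medians of 1.23, 1.39 and 0.58% of their N0 level in N0.5 replicates 1, 2 and 3. The 34 features 32-fold or more lower, with at least 10 CPM in N0.5, had medians of 1.66, 1.68 and 1.79% of their N0.5 level in the 3 N0 libraries. Low levels of this kind limit the fold that can be measured. Their part in the folds was not tested beyond the fit without N0.5 replicates 1 and 2.

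The direction of change went with abundance. Below 1 CPM (mean over 12 libraries), 10.9% of 2450 features rose and 22.9% fell, and between 1 and 10 CPM 23.5% of 3038 rose and 34.3% fell. Between 10 and 100 CPM rises were more frequent, with 44.0% of 7950 features against 33.9%, and at 100 CPM or more the shares were 39.9 and 40.8% of 1991. The median absolute log2 fold change fell from 1.08 in the lowest tier to 0.51 in both upper tiers. Below 1 CPM nearly every call was also a change of 2-fold or more (268 of 268 rises and 559 of 560 falls).

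The direction differed between quartiles of feature length, without a single trend over all 4. Of the shortest quartile, under 808 bases, 22.9% rose and 23.3% fell, and at 2-fold or more 513 of 3858 features rose and 770 fell. Of the longest quartile of features, over 2085 bases, 28.5% rose and 46.4% fell. Of the second quartile, between 808 and 1385 bases, 45.5% rose and 28.6% fell. In the shortest quartile the direction differed with abundance: under 1 CPM 10.4% rose and 22.3% fell, and between 1 and 10 CPM 18.9% rose and 31.5% fell. At 10 to 100 CPM 61.7% of it rose and 18.9% fell. At 100 CPM or more, 73.1% of the 108 features in the shortest quartile rose and 13.0% fell, against 27.4% and 51.2% of the 1020 in the longest quartile. The median log2 fold changes of these groups were 0.51 and -0.20. This was also so with library totals (70.4% rising and 15.7% falling in the shortest, 22.6 and 58.2% in the longest). With each library's smooth trend with length taken out, an alternative chosen after seeing the data, the shares came to 39.8 and 29.6% in the shortest and 35.6 and 35.5% in the longest, as that correction is built to do.

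The length trend lay mainly in the N0.5 libraries. At 719 bases the fitted trend, in log2 units relative to the mean of all libraries, was between -0.35 and -0.31 in the 3 N0.5 libraries and between 0.035 and 0.13 in the 3 N0 libraries. At 4082 bases it was between 0.23 and 0.25 in N0.5 and between -0.093 and 0.038 in N0. Per-library RNA integrity and fragment size were not analysed here, and their part in the trend was not tested. Without the trend, 4279 features were called higher in N0 and 5305 lower, and 8615 of the 10386 original calls (82.9%) were made again in the same direction, with 9 in the opposite direction. At 2-fold or more, 1581 were higher and 3092 lower, with the trend also applied to features under 10 CPM, on which it was not fitted.

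**Figure D4:**
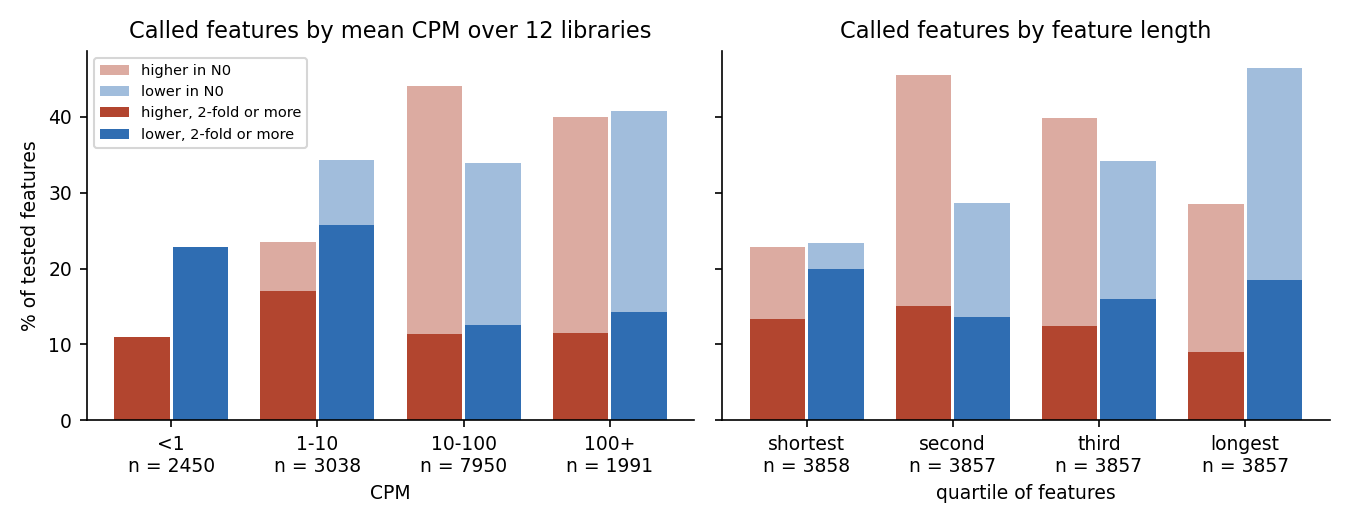
Percent of tested features called higher (red) or lower (blue) in N0 than in N0.5, by mean CPM (left) and by quartile of feature length (right); dark parts of the bars are changes of 2-fold or more. Falls outnumber rises below 10 CPM and in the longest quartile, at 28.5% rising against 46.4% falling.

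Features of the same Trinity gene often changed unequally. Of the tested features, 7869 belonged to 3524 Trinity genes with 2 or more tested features, and in 2567 of these genes (72.8%) the features differed in their change between N0.5 and N0 (edgeR's diffSpliceDGE, gene-level F test, Benjamini-Hochberg adjusted p under 0.05). In 1022 genes (29.0%) at least 1 feature was called higher and at least 1 lower, and in 235 (6.67%) both by 2-fold or more. In 379 genes every tested feature rose and in 308 every one fell. The share with unequal change stands beside the 67.3% of single features called, and with so many features changed, unequal change is frequent too. Calls in both directions stand beside the 34.2% of all tested features called higher and the 33.1% called lower. With shares of this size, unrelated features would often be called in opposite directions too. Opposite calls are therefore not read as particular to Trinity genes.

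Unequal change was counted by how the features lay on contigs, with no test of the difference. Unequal change was called in 1059 of 1560 genes (67.9%) whose tested features all lay on 1 contig, and in 1200 of 1634 (73.4%) with each feature on a contig of its own. In the 330 genes of mixed layout, which had more tested features each (1039 in all), it was called in 308 (93.3%). Calls in both directions were made in 25.4, 27.5 and 53.6% of these 3 classes. Among genes with exactly 2 tested features, opposite calls were made in 312 of 1350 (23.1%) on 1 contig and in 332 of 1419 (23.4%) on separate contigs. Of all tested features 34.2% were called higher and 33.1% lower, so opposite calls would be frequent in pairs of unrelated features too. Such pairs were not counted. Features on 1 contig can be distinct reading frames or neighbouring transcripts joined in assembly, which the names do not tell apart, and reads shared between contigs of a gene could have been split by the counting.

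In the Trinity gene with the widest opposite change on 1 contig, at a minimum mean of 10 CPM for each feature, 1 feature had 387, 353 and 446 CPM in the N0 replicates and 18.1, 16.9 and 11.8 CPM in the N0.5 replicates. The other had 5.37, 7.58 and 4.601 CPM in N0 and 29.6, 29.2 and 32.1 CPM in N0.5. Neither pair of groups overlapped. The log2 fold changes were 4.66 and -2.37 (edgeR adjusted p 2.85e-09 and 3.38e-09), over nearly equal apparent lengths of 2276 and 2270 bases. In the widest case on separate contigs, 1 feature went from 54.3, 61.1 and 16.6 CPM in N0.5 to 4667, 3842 and 4534 CPM in N0, while the other fell from 30.7, 19.1 and 19.6 to 3.57, 2.53 and 5.59 CPM. The first of these is the fifth largest gain described above. The 2 features of this Trinity gene were thus at 1617 and 2.11 FPKM in N0, and at 17.3 and 13.4 FPKM in N0.5.

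**Figure D5:**
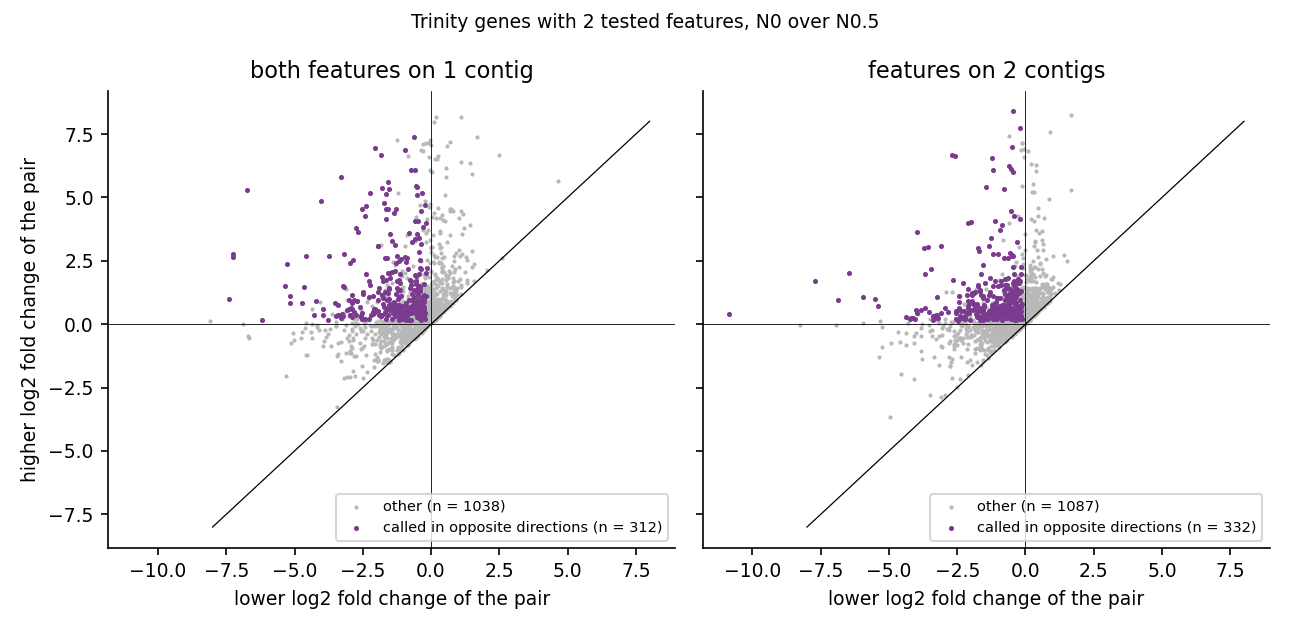
Lower against higher log2 fold change (N0 over N0.5) of the 2 features in Trinity genes with exactly 2 tested features, for features on 1 contig (left, 1350 genes) and on 2 contigs (right, 1419 genes). Points in the upper left corner moved in opposite directions, and 312 and 332 of them were called in both. Of all tested features 34.2% were called higher and 33.1% lower, so unrelated pairs would often be opposite too.

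The comparison of N1 with N1.5 is the one step of the NaNO3 series that shares no library with N0 against N0.5. It called 1169 features (7.58%), 613 higher (3.97%) and 556 lower (3.60%) in N1. Of the 613, 392 (63.9%) were also higher in N0 than in N0.5, where 34.2% of all features were, and 153 (24.96%) were lower, where 33.1% were. Of the 556, 324 (58.3%) were also lower in N0 and 136 (24.5%) higher. The shared rises were 7.43% of all rises in N0 against N0.5, and the shared falls 6.34% of all falls. In the median, the 613 had a log2 fold change of 0.78 in N0 against N0.5 and the 556 one of -0.79. The 2 steps were fitted with a common estimate of the spread, and no test was made of the overlap. The number called in N1 depended on single libraries, at 722 without N1 replicate 1, 612 without N1 replicate 3, 644 without N1.5 replicate 1 and 689 without N1.5 replicate 2. Of these, between 61.9 and 65.5% were called in the same direction in N0 against N0.5, and between 22.7 and 25.5% in the opposite one.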

How the data were processed

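RNA was measured by sequencing of poly(A)-selected libraries of 12 cultures. Per the labels' protocols, RNA was extracted with TRIzol, treated with DNase I, purified with oligo(dT) beads and made into libraries with a NEBNext Ultra kit. The submitters' processing notes name DESeq, Bowtie2 2.4.5 and Trimmomatic 0.40 without saying what each did; nothing in the sources used here names the counting tool, the assembly or the annotation. The authors deposited estimated counts and, for the same features, FPKM values scaled to length and library total.

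Estimated counts were rounded and tested with edgeR 4.0.16 in R 4.3.3 (glmQLFit, TMM, filterByExpr by group), with all 12 libraries in a single fit and no covariate. The filter kept 15429 of 16413 features, holding 99.96 to 99.99% of the counts of each library. Unequal change within Trinity genes was tested with diffSpliceDGE. Standard errors are the log2 fold change over the square root of F. Single values were compared by exact permutation tests (scipy 1.17.1). Alternatives used DESeq2 1.42.0, limma 3.58.1 on log2(FPKM + 1) and log2(FPKM + 0.1), other scalings, filters and sets of libraries. The edgeR tests of features and of unequal change were tried on simulated data in which only a small part of the features was changed. Such data cannot show how the tests behave when most features change. Libraries of a group differed by more than counting error (chi-square over its degrees of freedom 5.25 to 13.1).

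With no gene names, 2 features that rose and 2 that fell are named: in each direction the largest fold change and the largest CPM difference at 2-fold or more, among called features with a mean of at least 5 CPM over the 6 libraries and groups that do not overlap, 8404 in all. Cases given without a name were chosen after their values were seen. The members, tests and lists were chosen with earlier results of these data known.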

Additional observations from a re-analysis of the deposited data

How the results depend on the processing

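The call and direction of the 4 named features held in all 72 alternative values. Log2 fold changes went from 2.18 to 2.45 for TRINITY_DN7326_c0_g1_i7_3, 3.22 to 9.14 for TRINITY_DN6137_c0_g1_i4_2, -5.98 to -5.76 for TRINITY_DN6697_c0_g1_i1_4 and -11.0 to -2.82 for TRINITY_DN6939_c0_g1_i3_1. Of 366 alternative values, 321 were labelled the same as the reported one and 45 moved, and 0 reversed. For counts of features or genes, the same meant within 1.5-fold, and for positions within the SD over libraries. For the spread of counts it meant only the same sign, and for named features the same sign and a call, so sizes could differ widely. The share of the 10 most abundant features differed by 0.91 percentage points in FPKM, against 2.45 in counts. Testing against a change of 1.5-fold left 5352 calls, 2510 higher and 2842 lower. On the log2(FPKM + 1) scale, with and without a filter, 435 features were higher and 544 lower by 4-fold or more, and 40 and 5 by 32-fold or more; with 0.1 added the latter were 118 and 42. Without a filter on low counts, 124 fell by 32-fold or more. Without N0.5 replicates 1 and 2, 343 rose by 32-fold or more; the lone N0.5 library is then assumed to vary like the other groups. Summed over Trinity genes, of which there are fewer, 1689 fell 2-fold or more, 468 rose and 673 fell 4-fold or more, and 110 rose and 41 fell 32-fold or more. Causes other than scale and number of units were not tested.

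With single libraries left out, falls of 32-fold or more went from 81 to 143, calls in N1 against N1.5 from 612 to 1320, those shared in direction from 392 to 821 and those opposed from 141 to 336. The position of N1.5 among falls went from 0.426 to 0.450. At 4-fold or more the positions were 0.151 (N1.5) and 0.249 (N1) for rises and 0.430 (N1.5) for falls. With library totals they were 0.358 (N1.5) for rises, and 0.388 (N1.5) and 0.442 (N1) for falls.

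The replicate numbers showed no visible pairing of the samples. Deviations of same-numbered N0 and N0.5 libraries correlated at -0.010, -0.039 and 0.012, and those of differently numbered libraries between -0.072 and 0.081. Whether the cultures were paired by design cannot be read from these values. With the replicate block, 10392 features were called, 2569 Trinity genes changed unequally and 1184 features were called in N1. The test of unequal change was also tried with the length trend taken out, but its value is not given, since the function takes the offsets of 1 feature for the fit of every Trinity gene. Depth limits features below 1 CPM, where calls below 2-fold were nearly absent.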

Other observations

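The spread between libraries was slightly wider in N0 than in N0.5, with no test of the difference. It went with N0 replicate 2. Chi-square over its degrees of freedom was 13.1 in both N0 pairs with that library and 6.64 between N0 replicates 1 and 3. The N0.5 pairs ran from 5.25 to 10.7. Among 9941 features with a mean of at least 10 CPM over 12 libraries, the median coefficient of variation of CPM over 3 libraries was 6.52% in N0 and 5.48% in N0.5. Features with less than 1 estimated count numbered 462 ± 47.9 (SD, n = 3) per N0 library and 399 ± 28.4 per N0.5 library (exact permutation p 0.2). The single most abundant feature of a library took 1.24% ± 0.11 of the counts in N0 and 0.80% ± 0.03 in N0.5 (exact permutation p 0.1, the smallest this design allows). In FPKM, where length is taken out, its share was 1.50% ± 0.24 and 1.35% ± 0.02 (exact permutation p 0.4).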
